A study of Mus musculus with 10 samples.

Results

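The calcium-handling set comprised 10 genes of the skeletal muscle triad and sarcoplasmic reticulum, Cacna1s, Ryr1, Jph1, Trdn, Casq1, Casq2, Atp2a1, Atp2a2, Sln and Pln, chosen by gene symbol among the 32285 genes of a count table from mouse Achilles tendon. All 10 were found, and all 10 were among the 16017 genes that passed the filter on low counts. Mkx (Mohawk), a homeobox transcription factor of tendon, was deleted conditionally. The 3 Mkx-CreER/flox (knockout) libraries came from mice that carry both a tamoxifen-inducible Cre recombinase named for Mkx and a floxed Mkx allele. Controls were 3 Mkx-CreER/+ libraries, with the CreER allele alone, and 4 Mkx flox/+ libraries, with the floxed allele alone (called Mkx-flox in the design text). All mice, controls included, received tamoxifen (20 mg/kg) at 6 weeks of age, and the tendon was taken 4 weeks later. The labels give no sex or litter. They do not say which cells the CreER allele reaches, whether it also disrupts Mkx, or whether each library came from a separate mouse, so p-values measure the spread between these libraries, which may be partly technical. Libraries are numbered as in the column names of the table (Mkx-CreER/+ 1, 2 and 4, Mkx-CreER/flox 1, 4 and 5, Mkx flox/+ 1 to 4).

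In a skeletal muscle fibre, an action potential runs down the transverse tubule and moves the voltage sensor of the L-type calcium channel. The sensor opens the ryanodine receptor in the facing sarcoplasmic reticulum, and stored calcium flows out onto the myofilaments. Calsequestrin buffers the calcium inside the store, triadin and junctophilin hold the junction together, and the SERCA pumps return calcium to the store, restrained by small membrane peptides. Fast fibres use mainly the pump gene Atp2a1 and the calsequestrin gene Casq1, while slow fibres and heart use Atp2a2 and Casq2. Use of Casq2 in slow fibres does not exclude Casq1 there. Tendon cells are fibroblasts and are not known for this machinery, but the Achilles tendon joins the calf muscles, among them the soleus, which is rich in slow fibres. Atp2a2 is also transcribed at a lower level in most cell types.

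Library totals ranged from 8680934 to 22656417 counts, so that 3 counts corresponded to between 0.126 and 0.360 CPM (counts scaled to library size with edgeR's TMM factors). Mkx was lowest in the Mkx-CreER/flox libraries, with a mean of 29.7 ± 3.19 CPM (SD, n = 3). The means of the controls were 92.9 ± 1.30 for Mkx-CreER/+ (n = 3) and 160 ± 29.6 for Mkx flox/+ (n = 4), which gave a log2 fold change of -2.04 ± 0.176 (SE) against the mean of both controls (edgeR quasi-likelihood test, adjusted p = 0.000149). The tissue label was met by tendon fibroblast markers (9 genes), but their sums differed by genotype without overlap. They were 23821 to 31245 CPM in Mkx-CreER/flox, 39887 to 51386 in Mkx-CreER/+ and 62174 to 125569 in Mkx flox/+. RNA of skeletal muscle fibres was in every library as well. The 25 fibre markers, none of them a member, took between 7.81% and 12.7% of counts in Mkx-CreER/flox, 3.24% to 7.80% in Mkx-CreER/+ and 1.72% to 5.22% in Mkx flox/+. Summed slow fibre markers (6 genes) ranged over 4271 to 13430 CPM in Mkx-CreER/flox, above 1845 to 4213 in Mkx-CreER/+ and 251 to 3449 in Mkx flox/+. Summed fast fibre markers (9 genes) overlapped, at 6887 to 14320, 5668 to 23458 and 2997 to 16406 CPM in the same order. The 13 mitochondrially encoded genes took 8.85%, 5.32% and 3.96% of counts in Mkx-CreER/flox 1, 4 and 5, 2.33% to 4.78% in Mkx-CreER/+ and 1.92% to 2.31% in Mkx flox/+, and their part in the results was not tested. In bulk tissue, more fibres and more RNA per fibre cannot be told apart.

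The estimates for the calcium-handling genes were mostly higher in Mkx-CreER/flox tendon, but few of the differences passed the test. Against the mean of both controls, all 10 estimates were above 0, with a median log2 fold change of 1.05 beside 0.016 over all genes tested. By edgeR's quasi-likelihood test, only Atp2a2, the slow fibre pump, rose at an adjusted p under 0.05, which is 1 of 10 where 4.65% of all genes tested were called in either direction and 3.03% rose. Before adjustment, 7 members had p under 0.05. The share of all genes with an unadjusted p under 0.05 is not given here for any comparison. On the same contrast limma voom called 3 (Atp2a2, Casq2 and Sln) and DESeq2 called 4 (Atp2a2, Ryr1, Sln and Trdn). For limma voom and DESeq2 the share of all genes called is not given here, so these counts have no baseline. Against Mkx flox/+ alone, Atp2a2 and the release channel gene Ryr1 rose by edgeR, 2 of 10 beside 7.27% of all genes called and 4.37% risen, and the members' median log2 fold change was 1.35 beside 0.009 over all genes. Against Mkx-CreER/+ alone no member was called by edgeR's quasi-likelihood test (3 at an unadjusted p under 0.05), and none by DESeq2 or limma voom. In that comparison 0.00624% of all genes were called, which is Mkx alone, and the members' median log2 fold change was 0.92 beside 0.026, with 9 of 10 estimates above 0 and Atp2a1 at -0.18. Between the controls, Mkx-CreER/+ against Mkx flox/+, no member and no other gene was called (0%; 1 member at an unadjusted p under 0.05, and no member called by DESeq2 or limma voom), although all 10 estimates were above 0, with a median of 0.59 beside 0.0016. These comparisons share libraries, so their values are not independent of each other.

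**Figure D1:**
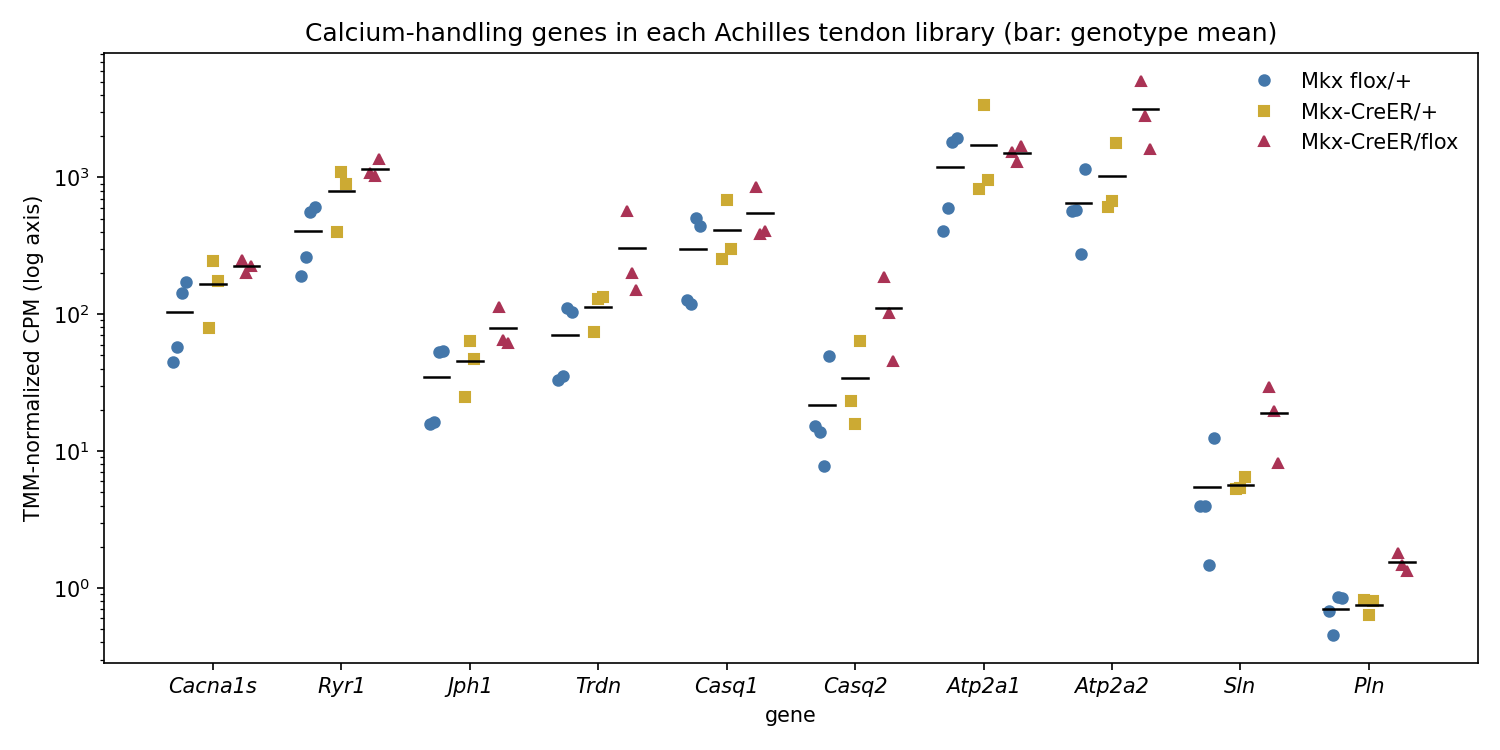
TMM-normalized CPM on a log axis for each of the 10 genes, 1 point per library and a bar at each genotype mean (Mkx flox/+ n = 4, Mkx-CreER/+ n = 3, Mkx-CreER/flox n = 3). All 3 Mkx-CreER/flox points lie above all 7 controls for Trdn and Pln; for Atp2a1 they lie within the spread of the controls.

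By edgeR's quasi-likelihood test, the release channel gene passed against Mkx flox/+ and the voltage sensor gene passed in no comparison. Their log2 fold changes against Mkx flox/+ were 1.52 ± 0.400 and 1.11 ± 0.472 (SE), and the difference between the 2 genes was not tested. Cacna1s encodes the pore subunit of the L-type channel, the voltage sensor of the transverse tubule. It measured 250, 202 and 225 CPM in Mkx-CreER/flox 1, 4 and 5, then 78.8, 246 and 176 CPM in Mkx-CreER/+ 1, 2 and 4, and 45.1, 57.1, 144 and 172 CPM in Mkx flox/+ 1 to 4. The knockout libraries lay above all 4 Mkx flox/+ libraries, but Mkx-CreER/+ 2 reached their range. The log2 fold change against both controls was 0.77 ± 0.417 (SE, edgeR adjusted p = 0.331). Of the Cacna1s exon length, 20% overlaps Gm37759 on the other strand.

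Ryr1 (chr7:29003344-29125179, minus strand, gene coordinates throughout from GENCODE vM21 on mm10) encodes the sarcoplasmic reticulum calcium release channel. It stood at 1075, 1028 and 1367 CPM in Mkx-CreER/flox, at 400, 1087 and 888 CPM in Mkx-CreER/+, and at 190.5, 263, 562 and 602.5 CPM in Mkx flox/+. All Mkx-CreER/flox values lay above all Mkx flox/+ values, and the Mkx-CreER/+ library numbered 2 was inside the knockout range. Against Mkx flox/+, Ryr1 rose by 1.52 ± 0.400 on the log2 scale, 2.86-fold (edgeR adjusted p = 0.0373). Against both controls the log2 fold change was 1.03 ± 0.350 (edgeR adjusted p = 0.110; DESeq2 adjusted p = 0.0306), and between the controls it was 0.97 ± 0.398 (adjusted p = 0.927), the only member with an unadjusted p under 0.05 there. The Ryr1 call against Mkx flox/+ was lost without any single one of Mkx-CreER/+ 4, Mkx-CreER/flox 1, 4 or 5, or Mkx flox/+ 1 or 2 (adjusted p from 0.0548 to 0.131). It was also lost without a low-count filter (adjusted p = 0.120), with the mean fibre marker level as a covariate (adjusted p = 0.794) and with limma voom (adjusted p = 0.0504). The ratio of Ryr1 to Cacna1s counts varied less than either gene, from 3.5 to 6.08 over the 10 libraries. Cacna1s itself ranged 5.55-fold and Ryr1 7.17-fold. The mean ratio was 5.16 ± 0.894 in Mkx-CreER/flox, 4.85 ± 0.371 in Mkx-CreER/+ and 4.06 ± 0.468 in Mkx flox/+ (SD). The genotypes overlapped in this ratio, and whether they differ was not tested.

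The junction genes included triadin, which did not overlap between the knockout and any control. Jph1, junctophilin 1, ties the transverse tubule to the reticulum membrane. Its levels were 112, 64.7 and 61.7 CPM in Mkx-CreER/flox, 24.9, 64.1 and 47.4 CPM in Mkx-CreER/+, and 15.8, 16.2, 52.6 and 54.2 CPM in Mkx flox/+. Mkx-CreER/+ 2 again lay among the knockout libraries. The log2 fold change of Jph1 against both controls was 1.0 ± 0.427 (edgeR adjusted p = 0.217).

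Trdn (chr10:33080554-33476709, plus strand) encodes triadin, which links the release channel to calsequestrin. It measured 571, 199 and 151 CPM in Mkx-CreER/flox, 74.6, 128.5 and 133 CPM in Mkx-CreER/+, and 33.1, 35.7, 111 and 105 CPM in Mkx flox/+. Every knockout library was above every control, the lowest of them narrowly. Only Trdn and Pln among the 10 members showed this, where 3.81% of all genes tested did. The log2 fold change of Trdn was 1.78 ± 0.485 against both controls (adjusted p = 0.0690), 2.11 ± 0.569 against Mkx flox/+ (adjusted p = 0.0543) and 1.45 ± 0.614 against Mkx-CreER/+ (adjusted p = 0.444) by edgeR, none of which passed. DESeq2 called Trdn against both controls (adjusted p = 0.0312) and against Mkx flox/+ (adjusted p = 0.0157), and limma voom called it against Mkx flox/+ (adjusted p = 0.0469). Library Mkx-CreER/flox 1 weighed heavily. Its Trdn counts were 0.531 times its Ryr1 counts, against 0.110 to 0.197 in the other 9 libraries, and without it the log2 fold change against both controls was 0.95 (adjusted p = 0.426). Against Mkx flox/+, Trdn passed without Mkx-CreER/flox 5 (2.42, adjusted p = 0.0466).

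Neither calsequestrin gene, whose products bind calcium in the lumen of the store, passed edgeR's test, and the difference between them was not tested. Casq1, the main form of fast fibres, stood at 848, 385 and 406 CPM in Mkx-CreER/flox, at 254, 678 and 300.2 CPM in Mkx-CreER/+, and at 127, 119, 509 and 443.5 CPM in Mkx flox/+. The genotypes overlapped, and the log2 fold change against both controls was 0.64 ± 0.511 (edgeR adjusted p = 0.538). Casq2, a form used in slow fibres and heart, stood at 186, 102 and 45.2 CPM in Mkx-CreER/flox, at 23.2, 15.9 and 63.7 CPM in Mkx-CreER/+, and at 15.3, 13.9, 7.79 and 49.6 CPM in Mkx flox/+. Mkx-CreER/flox 1 and 4 were the highest of all libraries for Casq2, while Mkx-CreER/flox 5 lay below Mkx-CreER/+ 4 and Mkx flox/+ 4. Its log2 fold change, 2.03 ± 0.626 against both controls, was the highest among the members, but its error was also the widest (adjusted p = 0.104). Without Mkx-CreER/flox 1 it was 1.42 (adjusted p = 0.451), without Mkx-CreER/+ 4 it was 2.42 (adjusted p = 0.0488) and without Mkx flox/+ 4 it was 2.43 (adjusted p = 0.0247).

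The promoters of the calsequestrin pair are shown because they belong to 2 related genes whose count ratio, Casq1 to Casq2, varied from 3.78 to 65.3 between libraries. Each line gives the 250 bases before the RefSeq transcript start (GRCm38.p6), 5′ to 3′ on the gene's strand, with matches to CANNTG in capitals, the E-box letters that myogenic factors such as MyoD can bind. The Casq1 window is chr1:172219896-172220145 (minus strand) and the Casq2 window is chr3:102086165-102086414 (plus strand).
Casq1: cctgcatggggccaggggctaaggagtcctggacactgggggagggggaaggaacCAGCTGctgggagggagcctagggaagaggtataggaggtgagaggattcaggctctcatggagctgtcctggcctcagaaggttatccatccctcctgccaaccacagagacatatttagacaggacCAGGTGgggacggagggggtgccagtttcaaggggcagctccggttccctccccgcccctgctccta
Casq2: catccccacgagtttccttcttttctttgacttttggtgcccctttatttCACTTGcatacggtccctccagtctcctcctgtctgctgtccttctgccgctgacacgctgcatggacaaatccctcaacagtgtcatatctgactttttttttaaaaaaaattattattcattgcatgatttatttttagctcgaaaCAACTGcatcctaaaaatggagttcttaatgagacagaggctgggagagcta
The Casq1 window holds 2 matches, the first of them CAGCTG, and the Casq2 window holds 2 with other inner bases. Of the 6 members with an entry in the RefSeq promoter table (Atp2a1, Cacna1s, Casq1, Casq2, Pln and Ryr1), 5 held CANNTG on either strand (the motif reads the same on both), beside 66.2% of all 32851 windows of the same length. The narrower motif CAGCTG, a case of the first, was in 3 of the 6 (Atp2a1, Cacna1s and Casq1), beside 13% of all windows. The remaining members are Atp2a2, Jph1, Sln and Trdn. A match is a description of letters and no measure of binding.

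Of the SERCA pumps, which refill the store, the slow form rose and the fast form was not called; the difference between them was not tested. Atp2a2 (chr5:122453513-122502225, minus strand), the pump of slow fibres and heart, measured 5081, 2829 and 1597 CPM in Mkx-CreER/flox, 608, 673 and 1785 CPM in Mkx-CreER/+, and 570.5, 573, 277 and 1158 CPM in Mkx flox/+. Mkx-CreER/flox 1 and 4 were above every control, and Mkx-CreER/flox 5 was below Mkx-CreER/+ 4 only. Atp2a2 rose by 1.96 ± 0.453 on the log2 scale against both controls, 3.90-fold (edgeR adjusted p = 0.0349), and by 2.30 ± 0.533 against Mkx flox/+, 4.91-fold (adjusted p = 0.0263). Against Mkx-CreER/+ the log2 fold change was 1.63 ± 0.577 (adjusted p = 0.363). The call against both controls was lost without any single one of Mkx-CreER/+ 1 or 2, Mkx-CreER/flox 1 or 4, or Mkx flox/+ 1 or 2 (adjusted p from 0.0595 to 0.231). The lowest estimate, 1.43, came without Mkx-CreER/flox 1. Against Mkx flox/+ the Atp2a2 call was lost without Mkx-CreER/flox 1 or 4 or Mkx flox/+ 1 or 2 (adjusted p from 0.0630 to 0.151). Without a filter on low counts, more genes were tested and the adjusted p was 0.116 against both controls and 0.102 against Mkx flox/+.

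Atp2a1 (chr7:126445858-126463108, minus strand), the pump of fast fibres, measured 1541, 1300 and 1694 CPM in Mkx-CreER/flox, 819, 3367 and 957.5 CPM in Mkx-CreER/+, and 404, 593, 1817 and 1935 CPM in Mkx flox/+. The knockout libraries lay within the range of the controls, and the highest of all libraries was Mkx-CreER/+ 2. The log2 fold change against both controls was 0.08 ± 0.539 (edgeR adjusted p = 0.955), and against Mkx-CreER/+ it was -0.18 ± 0.638 (adjusted p = 0.953). In the gene annotation, 21.9% of the exon length of Atp2a1 overlaps Rabep2 on the other strand. Without a stated strand rule, reads of the pair cannot be told apart there.

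**Figure D2:**
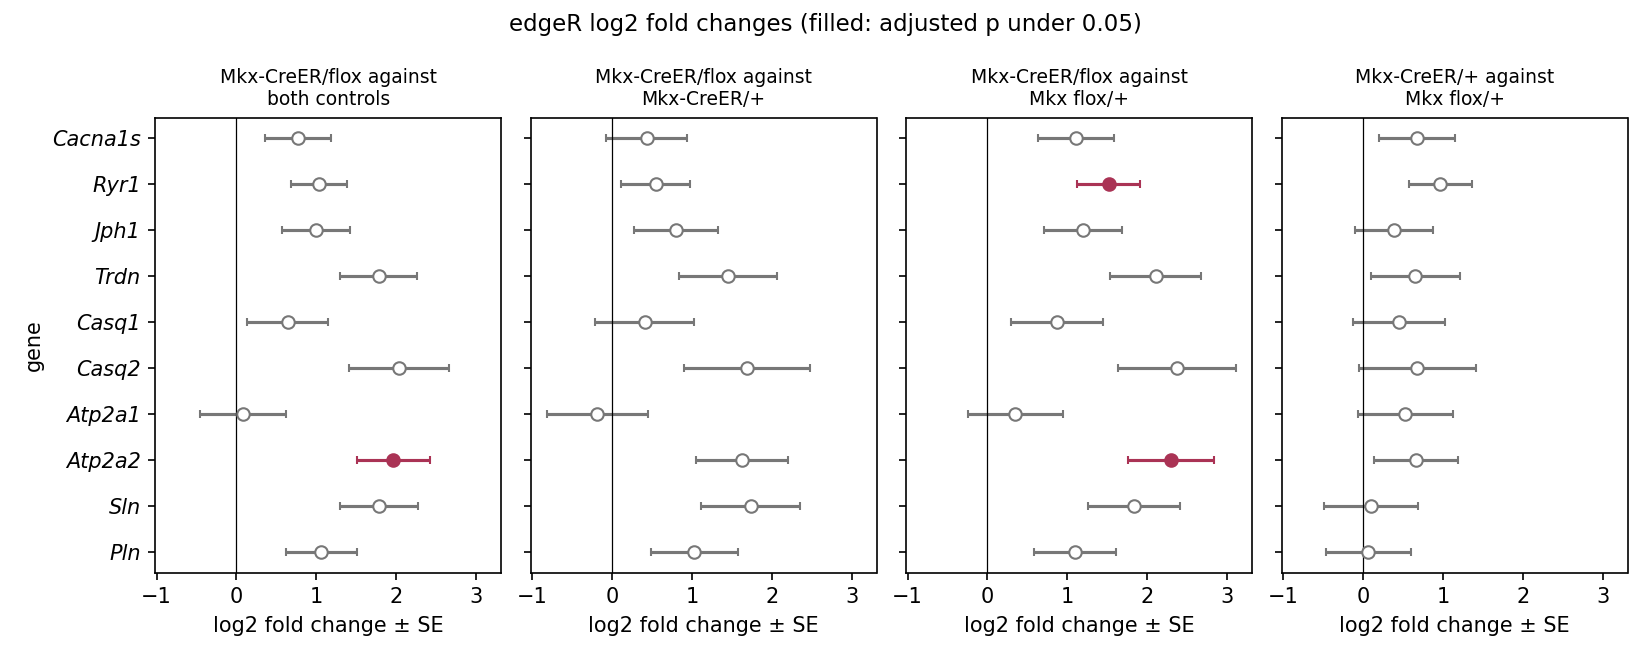
Log2 fold change ± SE of each gene in the 4 comparisons, from 1 edgeR quasi-likelihood fit to all 10 libraries; filled points have an adjusted p under 0.05 over all genes tested. Filled points are Atp2a2 (1.96) against both controls, and Atp2a2 (2.30) and Ryr1 (1.52) against Mkx flox/+; no point is filled against Mkx-CreER/+ or between the controls.

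The small peptides that restrain the pumps were scarce. Sln (chr9:53850164-53854560, plus strand) encodes sarcolipin, which in adult mice is found mainly in slow limb muscle and atrium. It was 29.5, 19.5 and 8.21 CPM in Mkx-CreER/flox, 5.25, 5.41 and 6.43 CPM in Mkx-CreER/+, and 3.99, 3.98, 1.48 and 12.5 CPM in Mkx flox/+. All knockout libraries were above all Mkx-CreER/+ libraries, and Mkx flox/+ 4 alone among the controls reached into their range. The log2 fold change of Sln was 1.78 ± 0.491 against both controls (edgeR adjusted p = 0.0608) and 0.10 ± 0.588 between the controls (adjusted p = 1). Without Mkx-CreER/flox 5 the Sln difference from both controls passed at 2.13 (adjusted p = 0.0305), and without Mkx flox/+ 4 at 2.17 (adjusted p = 0.00911). Without Mkx-CreER/flox 1 it was 1.31 (adjusted p = 0.304).

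Pln (chr10:53337667-53345987, plus strand) encodes phospholamban, the regulator of Atp2a2 protein in heart, slow muscle and smooth muscle. It was close to the detection floor, with 20, 30 and 18 counts in Mkx-CreER/flox, 11, 12 and 19 in Mkx-CreER/+, and 7, 4, 15 and 7 in Mkx flox/+. In CPM the knockout libraries held 1.81, 1.47 and 1.33, and the 7 controls ranged from 0.454 to 0.853, so that the groups did not overlap. The log2 fold change of Pln was 1.06 ± 0.447 against both controls (adjusted p = 0.194). Of its exon length, 64.7% overlaps Cep85l and Gm47644 on the other strand, so the counts cannot be assigned with certainty. Smooth muscle and pericyte markers also had higher sums in the knockout libraries: the 8 markers summed to between 1103 and 1410 CPM, against 476 to 826 CPM in the controls, and 2 of the 8 (Rgs5 and Abcc9) rose against both controls. The single markers did not all go this way. In Mkx-CreER/flox 1, which had the highest Pln, Rgs5 (654 CPM), Abcc9 (229) and Kcnj8 (43.9) were above every control. Acta2 (105 CPM), Myh11 (21.9), Tagln and Cnn1 were within the control range in that library, and Smtn (47.5) was below it. The part of these markers in the Pln values was not tested.

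Counted by overlap, the 3 knockout libraries were above all 4 Mkx flox/+ libraries for 6 members (Cacna1s, Ryr1, Jph1, Trdn, Atp2a2 and Pln), where 10% of all genes tested were. They were above all 3 Mkx-CreER/+ libraries for 3 members (Trdn, Sln and Pln), where 6.65% of all genes were. No member had all Mkx-CreER/+ libraries above all Mkx flox/+ libraries (2.88% of all genes). For Ryr1, Mkx-CreER/+ 1 fell within the Mkx flox/+ range.

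Read per kilobase of annotated exon (GENCODE vM21, mm10), the pumps and Casq1 stood above the channels and junction genes. Mean CPM per kilobase over the 10 libraries was 415 for Atp2a1, 249.2 for Atp2a2 and 209 for Casq1. These 3 levels were not separated beyond their spread: Atp2a1 was above Atp2a2 in 7 of 10 libraries, and Atp2a2 was above Casq1 in 6. Casq1 was above Ryr1 in every library, and Ryr1, at 34.2 CPM per kilobase, was above Cacna1s, at 24.4, in every library. Casq2 followed at 19.1, Trdn at 16.5, Jph1 at 10.3 and Sln at 7.30, with Cacna1s above Casq2 and Casq2 above Trdn in 8 of 10 libraries each, Trdn above Jph1 in all 10 and Jph1 above Sln in 9. The libraries with Casq2 above Cacna1s were Mkx-CreER/flox 1 and 4, and the Mkx-CreER/flox means were 40.5 CPM per kilobase for Casq2 and 34.4 for Cacna1s. Pln was lowest, at 0.351 CPM per kilobase. In the Mkx-CreER/flox libraries alone, Atp2a2 averaged 521 ± 290.5 CPM per kilobase and Atp2a1 435 ± 57.1 (SD, n = 3), an order reversed from that of Mkx-CreER/+, where Atp2a2 averaged 168 ± 109 and Atp2a1 493 ± 412. The spread of these means is wider than their difference.

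The slow and fast forms separated individual libraries more than genotypes. The ratio of Atp2a1 to Atp2a2 counts was 0.303, 0.459 and 1.06 in Mkx-CreER/flox, 1.35, 5.01 and 0.536 in Mkx-CreER/+, and 0.709, 1.03, 6.55 and 1.67 in Mkx flox/+. The knockout libraries were on the slow side, yet Mkx-CreER/+ 4 and Mkx flox/+ 1 and 2 were within their range. The ratio of Casq1 to Casq2 was 4.56, 3.78 and 8.98 in Mkx-CreER/flox, 10.96, 42.7 and 4.72 in Mkx-CreER/+, and 8.32, 8.61, 65.3 and 8.94 in Mkx flox/+. Casq1 thus exceeded Casq2 in every library. Mkx-CreER/+ 2 and Mkx flox/+ 3 were the fast extremes of both ratios. The contractile markers set the same libraries apart: the mean log2 CPM of slow minus fast markers was -2.40 in Mkx-CreER/+ 2 and -4.41 in Mkx flox/+ 3, and between -0.53 and 2.06 in the other 8 libraries. Whether the genotypes differ in these ratios was not tested.

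**Figure D3:**
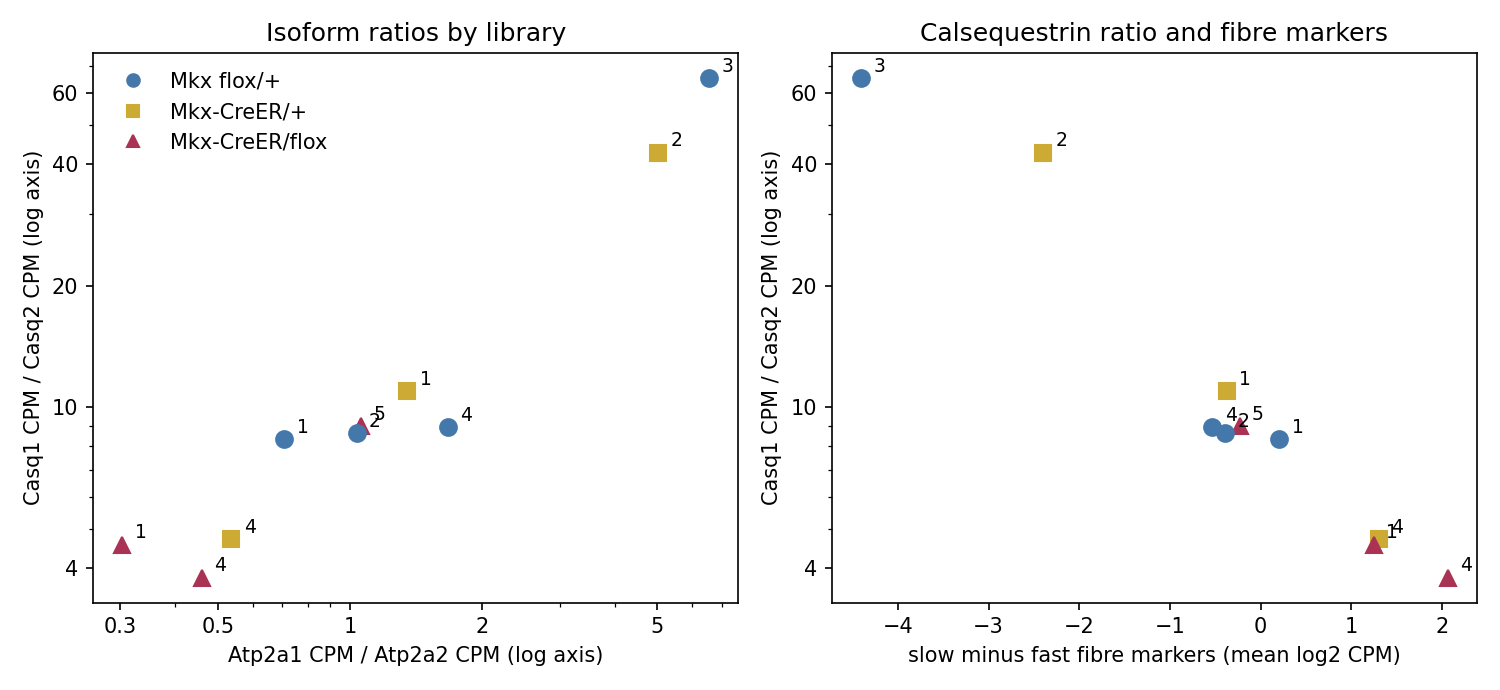
Left, the ratio of Casq1 to Casq2 CPM against the ratio of Atp2a1 to Atp2a2 CPM (both log axes); right, the same calsequestrin ratio against the mean log2 CPM of slow minus fast fibre markers. Each point is a library labelled with its number; Mkx flox/+ 3 (65.3) and Mkx-CreER/+ 2 (42.7) stand apart from the other 8, which lie between 3.78 and 10.96.

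Relative to the fibre markers of the same library, 4 members had a higher mean and 6 a lower mean in the knockout. Dividing each gene by the mean level of the 25 fibre markers (a difference of log2 CPM), the Mkx-CreER/flox mean exceeded the mean of both controls by 0.87 for Casq2, 0.75 for Atp2a2, 0.52 for Sln and 0.43 for Trdn. The difference was -0.07 for Ryr1, -0.12 for Jph1, -0.27 for Pln, -0.28 for Cacna1s, -0.47 for Casq1 and -0.85 for Atp2a1. These differences in ratio were not tested. They depend on the reference, which mixes fast, slow and pan-fibre markers. Against both controls the median log2 fold changes of these classes were 0.18, 2.16 and 1.38. Slow markers alone were not used as a reference. The SD of the ratio within a genotype reached 0.68 for Ryr1 (Mkx-CreER/flox) and 1.33 for Casq2 (Mkx-CreER/+). The 10 pan-fibre markers are part of the 25. With them alone as the reference, all 10 differences moved down by the same amount, for Trdn from 0.43 to 0.35. Each difference kept its sign, but because the shift is shared these are not 10 separate checks. For no member were the 3 knockout ratios above all 7 control ratios with either reference. With the mean fibre marker level as a covariate in the edgeR fit, Atp2a2 had a log2 fold change of 1.17 against both controls (adjusted p = 0.610), Ryr1 had 0.54 against Mkx flox/+ (adjusted p = 0.794), and no member was called in any comparison. In that fit 3 genes of all those tested were called against both controls. The fibre marker level itself was 9.89 ± 0.589 mean log2 CPM in Mkx-CreER/flox, 9.04 ± 0.533 in Mkx-CreER/+ and 8.28 ± 0.842 in Mkx flox/+ (SD), so genotype and fibre content were partly aligned.

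**Figure D4:**
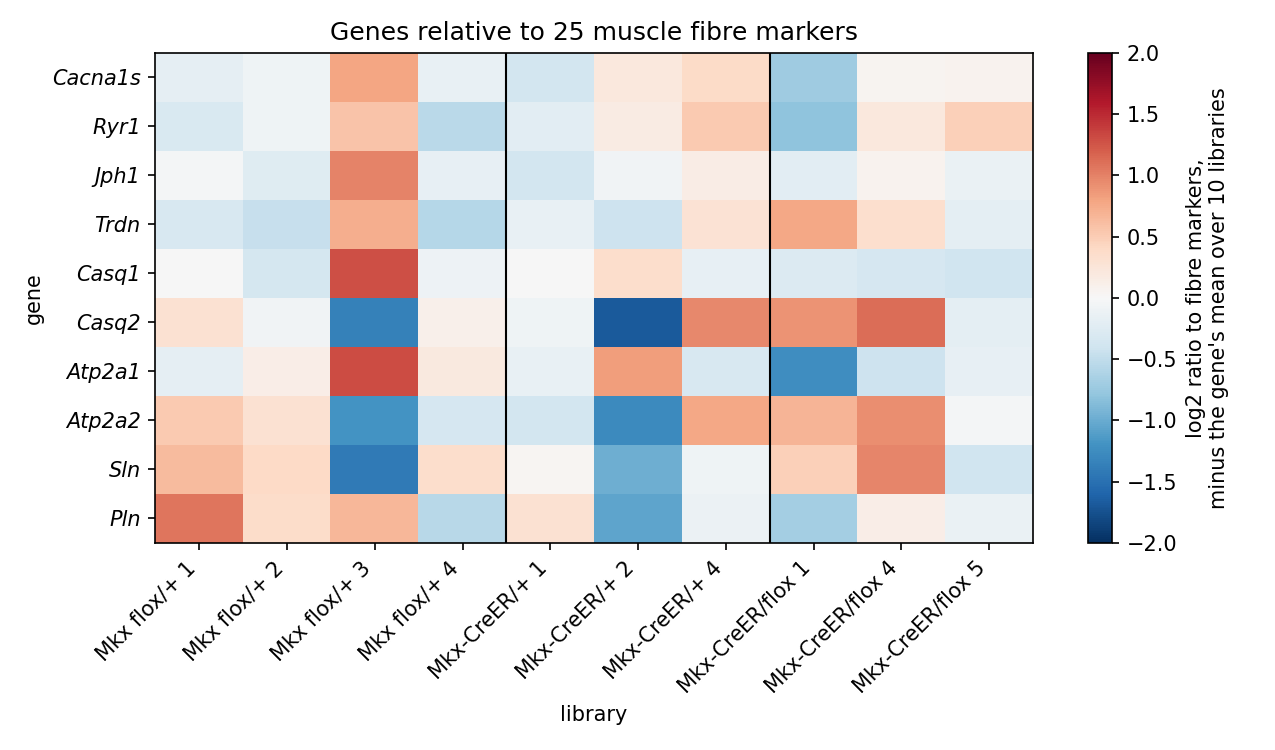
Log2 ratio of each gene to the mean of the 25 fibre markers, by library, minus that gene's mean over the 10 libraries (red, above its mean; blue, below); black lines divide the genotypes. Casq2 and Atp2a2 are below their means by more than 1.2 in Mkx flox/+ 3 and Mkx-CreER/+ 2, where Casq1 and Atp2a1 are above theirs.

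Over the 10 libraries, some members followed each other more closely than others by Pearson correlation of log2 CPM. The values are a description, since the libraries share genotype and muscle content, and no clustering was run. Atp2a2, Casq2 and Sln followed each other, at 0.984 for Atp2a2 with Casq2, 0.943 for Casq2 with Sln and 0.939 for Atp2a2 with Sln. Ryr1 with Cacna1s reached 0.972, Cacna1s with Jph1 0.966, Casq1 with Jph1 0.952 and Atp2a1 with Casq1 0.893. Atp2a1 had a correlation of 0.168 with Atp2a2 and 0.161 with Casq2. Other members were not cleanly divided: Trdn reached 0.948 with Jph1 and 0.763 with Atp2a2, and Ryr1 reached 0.620 with Atp2a2. Outside the set, the genes most like each member by the same measure included Jph2 for Ryr1 (0.991), the muscle creatine kinase Ckm for Atp2a1 (0.988), Dusp18 for Atp2a2 (0.991), Rtn2 for Casq1 (0.981) and St3gal5 for Casq2 (0.987). The slow troponin gene Tnni1 was most like Sln (0.975), the muscle phosphofructokinase Pfkm was most like Cacna1s (0.978), Smyd1 was most like Trdn (0.989) and Mypn was most like Jph1 (0.992). Pln had the lowest best match, Filip1l at 0.959.

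Other genes of excitation-contraction coupling, 55 from 6 lists, gave 52 that were tested. Against both controls 12 of 52 rose and none fell, beside 3.03% of all genes risen and 1.62% fallen, with a median log2 fold change of 0.55. Against Mkx flox/+, 14 rose and 2 fell with a median of 0.67 (2.90% of all genes fell), and against Mkx-CreER/+ and between the controls none was called by edgeR's quasi-likelihood test (9 and 6 at an unadjusted p under 0.05; limma voom called 6 against Mkx-CreER/+, DESeq2 called none in either). For limma voom the share of all genes called is not given here. The 12 that rose against both controls came from 3 lists. Of 14 triad and voltage-sensing genes 4 rose, among them Cav3, the muscle caveolin (log2 fold change 1.36 ± 0.279, adjusted p = 0.0224), Bin1, which shapes the transverse tubule (0.82), and the channel subunit gene Cacna2d1 (0.99). Of 9 genes of the reticulum lumen and membrane 4 rose, among them the muscle kinase gene Speg (1.12 ± 0.236, adjusted p = 0.0241) and the counter-ion channel gene Tmem38b (0.87). Of 8 tested genes of surface excitation 4 rose, among them the inward rectifier gene Kcnj2 (1.51 ± 0.329, adjusted p = 0.0282) and the acetylcholine receptor subunit gene Chrna1 (1.38).

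Of the other lists, none of the 6 small pump regulators and calcium buffers was called. The lowest p among them was that of Strit1, the DWORF peptide that activates the pump, at 7.51, 1.38 and 0.0739 CPM in Mkx-CreER/flox and no more than 1.30 CPM in any control (log2 fold change 2.33 ± 0.905, adjusted p = 0.164). For Strit1, Mkx-CreER/flox 5 lay below every control except Mkx flox/+ 3, which had no count. Among 7 store-operated entry and extrusion genes, the calcium sensor gene Stim1 alone rose against Mkx flox/+ (0.63 ± 0.178, adjusted p = 0.0466). Against both controls the Stim1 estimate was 0.51 (adjusted p = 0.0778). Of the 8 tested isoforms used mainly outside adult skeletal fibres, 2 fell against Mkx flox/+. Atp2a3, the pump of blood and endothelial cells among others, fell by 1.13 ± 0.270 on the log2 scale (adjusted p = 0.0242) and Jph4, a junctophilin of neurons, fell by 1.48 ± 0.418 (adjusted p = 0.0447). Atp2a3 averaged 45.3 ± 21.5 CPM in Mkx-CreER/flox, 59.0 ± 2.47 in Mkx-CreER/+ and 99.1 ± 16.3 in Mkx flox/+. The count of 12 fell to 0 without Mkx-CreER/+ 1 or 2 or Mkx-CreER/flox 4, to 1 without Mkx-CreER/flox 1, to 3 without Mkx flox/+ 1 or 2, and to 5 without Mkx flox/+ 3. It was 6 with the 7 controls as a single group and 0 with the fibre marker covariate. The count of 16 against Mkx flox/+ fell to 5 without Mkx-CreER/flox 1, to 10 without Mkx-CreER/flox 4, and to 6, 7 and 8 without Mkx flox/+ 1, 2 and 3. The numbers of all genes called on leaving out a library are not given here, so these counts have no baseline. Whether the falls are particular to these genes was not tested.

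Markers of cell types moved alongside these genes against both controls. Of the 10 pan-fibre markers 5 rose, of the 9 fast fibre markers 1 rose (Myh2), and of the 6 slow fibre markers none was called although all 6 had an unadjusted p under 0.05, with a median log2 fold change of 2.16 beside 0.18 for the fast markers. Of 6 tested markers of muscle stem cells and of regenerating or denervated fibres 1 rose (Pax7). Of 9 tendon fibroblast markers 5 fell, Mkx included, and all 5 macrophage markers fell. Of 4 endothelial markers 1 rose (Kdr) and of 4 Schwann cell markers 1 rose (Cdh19), while none of 4 adipocyte or 3 erythroid markers was called. No listed marker was at 0 in all libraries. The part of cell composition in the calcium-handling differences was measured only through the fibre markers above, and for the other cell types it was not tested.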

How the data were processed

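Achilles tendon RNA was measured by RamDA-seq, a full-length total RNA method with random priming, on an Illumina NovaSeq. The authors deposited raw counts, 1 row per Ensembl gene. The authors used fastp and STAR with mm10, per the submitters' processing notes. For versions, counting tool, annotation and strand setting, the sources used here say nothing. By name, Mkx flox/+ columns fit single samples, while the others fit only a genotype. GENCODE vM21 gave symbols for 32158 of 32285 identifiers. Replicate libraries differed beyond counting noise (chi-square per degree of freedom of 23.6 or more).

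The main model used edgeR 4.0.16 (R 4.3.3): filterByExpr by genotype, TMM scaling, and a robust quasi-likelihood fit to all 10 libraries with 1 term per genotype. P-values were adjusted by Benjamini-Hochberg over all 16017 genes, and genes were called at an adjusted p under 0.05. Standard errors were derived from the F statistic, and log2 CPM used a prior count of 2. The fit was tested on simulated data. The members, gene lists and markers were chosen with earlier results of these data known. Named genes were all members, up to 3 called genes per list by smallest p (else the 1 of smallest p), except some that are not reported here, and for likeness the genes with the highest correlation among those averaging at least 1 log2 CPM. Alternatives were DESeq2 1.42.0, limma 3.58.1 voom, other scalings and filters, a fibre marker covariate, other use of the controls and leaving out each library.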

Additional observations from a re-analysis of the deposited data

Results flagged for a closer look

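Library Mkx flox/+ 3 stood apart from the other 3 Mkx flox/+ libraries, its distance to the nearest of them exceeding Dixon's 95% limit, in 6 of 27 quantities tested in that genotype; chance alone flags about 1 in 20, and the 27 quantities are not independent. Its slow minus fast fibre marker difference was -4.41 mean log2 CPM. Its Atp2a1 to Atp2a2 ratio was 6.55 and its Casq1 to Casq2 ratio was 65.3. Its log2 ratio to the fibre markers was -7.57 for Sln, the lowest of the 4 libraries, and -1.09 for Cacna1s and -2.54 for Jph1, the highest of the 4. Leaving this library out kept the calls of Atp2a2 against both controls (1.84, adjusted p = 0.0414) and of Atp2a2 (2.04, adjusted p = 0.0486) and Ryr1 (1.72, adjusted p = 0.0487) against Mkx flox/+, by edgeR's quasi-likelihood test. Groups of 3 libraries were not tested for outlying values.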

How the results depend on the processing

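The members called against both controls (1) numbered 0 without a low-count filter, 0 with the fibre marker covariate, 3 with limma voom (Atp2a2, Casq2, Sln), 4 with DESeq2 (Atp2a2, Ryr1, Sln, Trdn) and 0 to 3 on leaving out 1 library. Against Mkx flox/+ (2) they numbered 0, 0, 4 (Atp2a2, Casq2, Sln, Trdn), 5 (these and Ryr1) and 0 to 4 under the same settings. Leave-one-out gave 0 to 13 of the other genes against both controls (12) and 5 to 19 against Mkx flox/+ (16). The fibre marker covariate gave 0 in both, the 7 controls as a single group gave 6, and limma voom gave 6 against Mkx-CreER/+ (0). The cause of these moves was not tested, except that the unfiltered fit tested more genes. Apart from the covariate fit against both controls, the numbers of all genes called under the alternative settings are not given here. Over 719 combinations of member, comparison and 19 settings, 644 kept direction and side of the threshold, 23 lost a call, 19 gained one and 33 changed sign.

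With the covariate the sign changed for Atp2a1 (-0.99), Casq1 (-0.68), Cacna1s (-0.19) and Jph1 (-0.13) against both controls, for Casq1 (-0.50) and Cacna1s (-0.20) against Mkx-CreER/+, for Atp2a1 (-1.17), Casq1 (-0.87), Cacna1s (-0.17) and Jph1 (-0.28) against Mkx flox/+, and for Atp2a1 (-0.35), Casq1 (-0.37), Pln (-0.057), Sln (-0.31), Trdn (-0.038) and Jph1 (-0.30) between the controls. Voom gave -0.0055 for Pln between the controls. On leaving out 1 library, Atp2a1 ranged from -0.11 to 0.56 against both controls, from -0.53 to 0.76 against Mkx-CreER/+ and from -0.42 to 0.87 between the controls. Casq1 ranged from -0.074 to 0.98 against Mkx-CreER/+ and from -0.11 to 0.84 between the controls, where Atp2a2 ranged from -0.012 to 1.11, Casq2 from -0.14 to 1.5, Sln from -0.25 to 0.90 and Pln from -0.085 to 0.18. None of these values with a changed sign was called in the main comparison.

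No paired analysis was possible because the labels give no litter or pairing of libraries. The Mkx-CreER/+ and Mkx-CreER/flox columns also carry numbers that are not those of the labels. Depth limits Pln, whose libraries held 4 to 30 counts.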
